A study of Mus musculus with 2 samples.

Results

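The genes described here are the effectors of the Hippo pathway in the developing mouse face. They are the coactivators Yap1 and Wwtr1 (the gene of TAZ), the DNA-binding partners Tead1, Tead2, Tead3 and Tead4, the inhibitory kinases Lats1 and Lats2, and Amotl2 and Ankrd1, which are widely used as target genes of the pathway. These 10 genes were chosen by symbol, and all 10 were found among the 55536 genes of the tables, 22028 of them protein coding. PolyA plus RNA-seq had been made from embryonic facial prominence, the tissue of the early face, of mouse embryos at 12.5 days. All embryos were of strain B6NCrl and described as healthy, with no treatment and no altered allele named. Biological replicate 1 was RNA of a pool of 120 embryos of both sexes and replicate 2 of a pool of 88. Both libraries therefore form 1 group, without a contrast between conditions, and a pool averages over embryos, sexes and every cell type of the dissected tissue.

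In the Hippo pathway, the kinases encoded by Stk3 and Stk4, with their scaffold Sav1, activate Lats1 and Lats2, which work with the Mob1 adaptors. Lats kinases phosphorylate Yap1 and Wwtr1 and so hold them outside the nucleus. Without that mark the coactivators enter the nucleus and bind Tead factors, which lack strong activating regions of their own. In mice, Yap1 and Wwtr1 are needed in neural crest cells, which build most of the facial mesenchyme. RNA tables hold no information on phosphorylation or on where a protein sits in the cell.

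Some of the sequences on which the results turn come first. Tead factors recognise the hexamer CATTCC, which reads GGAATG on the other strand. RefSeq promoter windows on GRCm38.p6, running from 250 bases before a gene's start to 50 bases after it, were given for 8 of the 10 genes, and not for Tead1 or Tead4. At least 1 match to the hexamer on either strand was found for 6 of those 8, compared with 16.6% of all genes with a window. The 8 genes had 12 windows between them, and a gene with several windows has more chances of a match. The matches of Yap1, Wwtr1, Amotl2 and Ankrd1 are shown because these are the coactivators and the target genes. Each is read along the gene's strand with the hexamer in capitals.
Yap1, chr9:8004720-8004749, minus strand: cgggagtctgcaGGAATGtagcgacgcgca
Wwtr1, chr3:57576029-57576058, minus strand: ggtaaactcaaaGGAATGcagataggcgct
Amotl2, chr9:102717727-102717756, plus strand: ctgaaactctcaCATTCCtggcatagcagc
Ankrd1, chr19:36120037-36120066, minus strand: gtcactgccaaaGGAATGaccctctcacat
Ankrd1, chr19:36119950-36119979, minus strand: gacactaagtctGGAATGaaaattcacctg

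The Yap1 match began 141 bases before the RefSeq start and that of Wwtr1 136 bases before it, and neither lay in an exon of any transcript of release M21. The Amotl2 match, 65 bases before the start, lay in the untranslated first exon of Amotl2-201 and Amotl2-207. Both Ankrd1 matches, 210 and 123 bases before the start, lay in the untranslated part of the longer Ankrd1-205. Tead3 held 4 different matches over 3 windows and Lats2 held 1. No match was found in the windows of Tead2 and Lats1, which says only that these letters were not in these windows. Of the 23 genes listed as YAP/TAZ/TEAD targets, 16 had a window and 8 of those held a match. The share among all genes with a window was 16.6%. Lats2, Amotl2 and Ankrd1 belong to that list too and are among those 8. Their matches are thus counted in both sets, and the target count is not independent of the earlier one.

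The coding sequences of the Tead family differ in where their annotated reading frames begin. For that reason the first 30 coding bases are shown, with the first codon in capitals. They are those of the coding transcripts that led by TPM, and of the next one of Tead3.
Tead1-202: ATGgaaaggatgagcgactcggcagataag
Tead2-201: ATGggggatccccggactggggcccccctg
Tead3-201: ATGcaactcggaggcctcgcgcgcagaggc
Tead3-206: ATAgcgtccaacagctggaccgccaacagc
Tead4-203: ATTacctccaacgagtggagctctcccgac

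In the annotation, Tead3-206 begins with ATA and Tead4-203 with ATT, so 2 of the 10 genes had a protein-coding transcript with a start other than ATG, compared with 1.78% of 21817 genes with a complete coding start. Starts at codons other than AUG are a known feature of this gene family. Over aligned coding bases, the 6 pairs of Tead genes were 72.5% to 77.9% identical, Tead3 and Tead4 being the most alike. Yap1 and Wwtr1 were 69.8% identical and Lats1 and Lats2 68.3%. Estimated counts were whole in both libraries for 9 of the 10 genes, and the exception was Yap1.

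A gene counted as detected when its TPM, the length-corrected share of all transcripts in the library that the gene takes, was at least 1 in both libraries. By that rule 9 of the 10 genes were detected, compared with 60.7% of protein-coding genes. Mean TPM ran from 224 for Tead2 to 0.330 for Ankrd1, with a median of 16.4 over all 10 genes. The order was Tead2, Amotl2, Yap1, Tead1, Lats2, Tead3, Wwtr1, Lats1, Tead4 and Ankrd1. Tead3 and Wwtr1 were the one pair of neighbours whose values overlapped, and with 2 libraries a gap between neighbours is no test. Levels are given below as mean ± SD over the libraries. In a bulk sample, fewer cells of a type and less RNA per cell cannot be told apart.

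**Figure D1:**
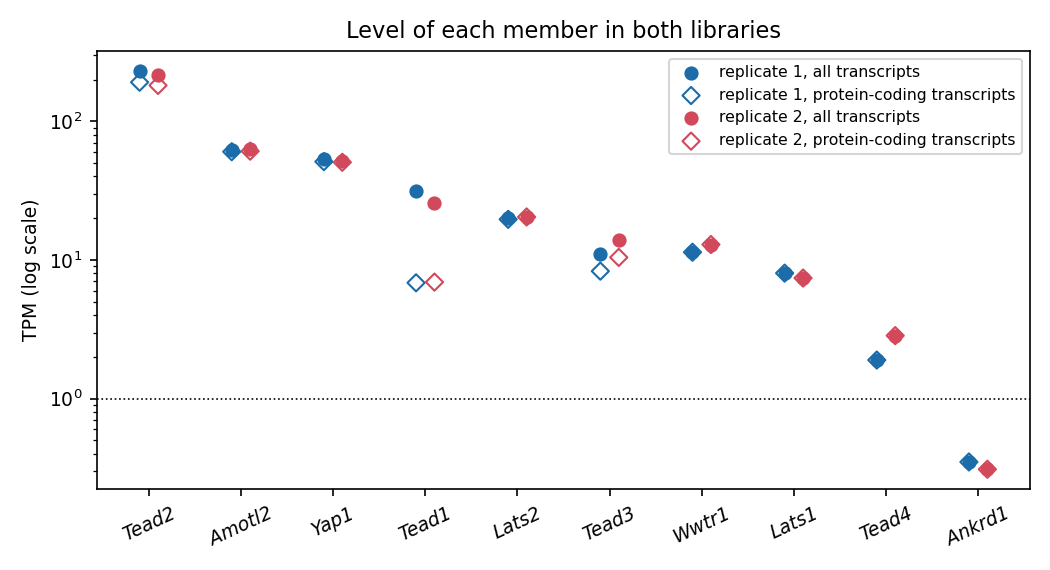
Level of each gene in TPM on a log axis, for replicate 1 (blue) and replicate 2 (red), ordered by mean. Filled circles sum all transcripts and open diamonds protein-coding transcripts only, the dotted line is a TPM of 1, and the diamonds of Tead1 sit at 6.85 and 6.93, far below its circles at 31.45 and 25.63.

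Of the coactivators, Yap1 was the more abundant in RNA. Yap1 (chr9:7931999-8004596, minus strand) had a TPM of 53.09 in replicate 1 and 52.03 in replicate 2 (52.6 ± 0.750, n = 2), from 3776.89 and 5215.92 expected counts. The libraries lay close together, at the 84.9th and 84.6th percentile of protein-coding genes. Wwtr1 (chr3:57455649-57575910, minus strand) had a TPM of 11.37 and 12.93 (12.2 ± 1.10, n = 2), from 963 and 1554 counts, with replicate 2 the higher. The ratio of Yap1 to Wwtr1 TPM was 4.67 in replicate 1 and 4.02 in replicate 2.

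Yap1 was read mainly as 2 protein-coding transcripts whose coding sequences differ by 1 exon. Yap1-202, with 472 codons, carried 70.44% and 74.01% of the gene's TPM, and Yap1-201, with 488 codons, carried 22.67% and 17.11%. In both libraries the shorter form was therefore the more abundant. The coding difference is an exon of 48 bases, or 16 codons, which keeps the reading frame. It is exon 6 of the 9 exons of Yap1-201, at chr9:7950492-7950539 on the minus strand of mm10. It is shown in capitals with 15 coding bases on either side.
Yap1-201: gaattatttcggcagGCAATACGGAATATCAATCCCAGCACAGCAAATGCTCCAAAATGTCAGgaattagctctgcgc

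Wwtr1 had nearly all of its TPM on Wwtr1-201, with 395 codons, which carried 96.67% and 99.54%. The expected counts of Yap1 were fractional. The antisense gene Gm20416 shares 116 exon bases with it and held 2.11 and 2.08 counts. Because no source used here states whether counting used the strand, reads of that stretch cannot be told apart.

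Tead2, the Tead gene known for high levels in early embryos and neural progenitors, was the highest of all 10 genes. Tead2 (chr7:45215753-45233644, plus strand) had a TPM of 231.63 and 216.74 (224 ± 10.5, n = 2), from 7697 and 10302 counts. That placed it at the 97.3rd and 97.1st percentile of protein-coding genes. It took 83.9% and 83.6% of the summed TPM of the 4 Tead genes. The 4 Tead genes together exceeded Yap1 and Wwtr1 together 4.28-fold in replicate 1 and 3.99-fold in replicate 2. Over protein-coding transcripts alone the excess was 3.33-fold and 3.17-fold.

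Tead1 (chr7:112679318-112906807, plus strand), which is broadly expressed in adult tissues and known from muscle genes, had a TPM of 31.45 and 25.63 (28.5 ± 4.12, n = 2), with replicate 1 the higher. Its counts were 1438 and 1937, a ratio of 0.943 once scaled for depth. The estimated effective length, by which the count is divided, was 2480 bases in replicate 1 and 2890 in replicate 2, so the TPM ratio moved with the mixture of transcripts as well as with the count. Tead3 (chr17:28331671-28350817, minus strand), known from placenta, had a TPM of 11.06 and 14.02 (12.5 ± 2.09, n = 2), from 529 and 829 counts. Tead4 (chr6:128224288-128300823, minus strand), needed for the first embryonic lineage and expressed in muscle precursors, was the lowest of the family. Its TPM was 1.9 and 2.85 (2.38 ± 0.672, n = 2), from 79 and 169 counts. Counting error alone left its level between 1.5 and 2.37 in replicate 1 and between 2.44 and 3.31 in replicate 2 (exact Poisson 95% intervals, which do not overlap). Of the summed Tead TPM, Tead1 took 11.4% and 9.89%, Tead3 4.01% and 5.41%, and Tead4 0.688% and 1.10%.

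Tead1 had most of its TPM on transcripts that are not annotated as protein coding. Transcripts annotated as protein coding held 21.8% and 27.0% of its TPM, but 74.0% and 78.5% of its counts. Under 50% of TPM on protein-coding transcripts in both libraries was found for 1 of the 9 detected genes, Tead1, compared with 9.93% of detected protein-coding genes, so such a gene is not rare in these tables. The retained-intron transcript Tead1-209, of 646 bases, held 49.42% and 44.30% of the TPM from 156.75 and 162.43 counts. The protein-coding Tead1-202, of 9480 bases, held 16.68% and 20.56% from 907.12 and 1292.56 counts. A short transcript receives more TPM per read than a long one, and that is how the smaller count gave the larger share.

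Tead1-209 runs over chr7:112759546-112842374 in release M21. Of its 646 bases, 222 lie in exons of Tead1-202, between exon 1 and exon 3 of its 11, and 424 lie outside the exons of that transcript. A second retained-intron transcript, Tead1-214 of 894 bases, held 21.41% and 20.93% of the TPM from 98.71 and 111.52 counts. In release M4 the percent of Tead1-209 was 52.98 as a mean of both libraries.

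Counting protein-coding transcripts alone, which was chosen after these values were seen, Tead1 had a TPM of 6.85 and 6.93 (6.89 ± 0.0566, n = 2). It then took place 8 and not place 4 of the 10 genes, between Lats1 and Tead4, and its depth-scaled count ratio was 1.00. Tead2 then took 91.8% and 90.0% of the summed Tead TPM and Tead1 3.29% and 3.44%. The ratio of Tead2 to Tead1 was 7.37 and 8.46 over all transcripts, and 27.9 and 26.2 over protein-coding ones. Tead2 was the highest Tead gene on both scales, and the place of Tead1 below it depended on which transcripts were counted.

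Among the other Tead genes, Tead2-201 with 445 codons led with 72.07% and 74.27% of the gene's TPM. A short noncoding transcript, Tead2-204 of 460 bases, held 10.21% and 9.02%. Tead3 was spread over Tead3-201 with 46.49% and 56.39%, Tead3-206 with 28.71% and 16.27%, and the retained-intron Tead3-202 with 20.59% and 10.92%. These Tead3 shares varied more between the libraries than those of Tead2, and they rested on 529 and 829 counts. Tead4 was divided almost evenly between Tead4-203 with 384 codons, which held 46.59% and 52.27%, and Tead4-201 with 427 codons, which held 45.30% and 47.73%. Their coding sequences differ by an exon of 129 bases, exon 5 of the 12 of Tead4-201, at chr6:128247960-128248088. The rest of the difference between these transcripts is untranslated. The posterior mean estimate, which is the second estimate in the tables, put Tead4-203 at 34.12% and 41.76% and Tead4-201 at 31.74% and 36.29%. Tead4-203 was the higher in TPM by both estimates, with only 79 and 169 counts of the gene to divide. By counts the order was reversed, with 59.9% and 62.7% on Tead4-201, of 3076 bases, and 33.5% and 37.3% on Tead4-203, of 1718 bases.

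**Figure D2:**
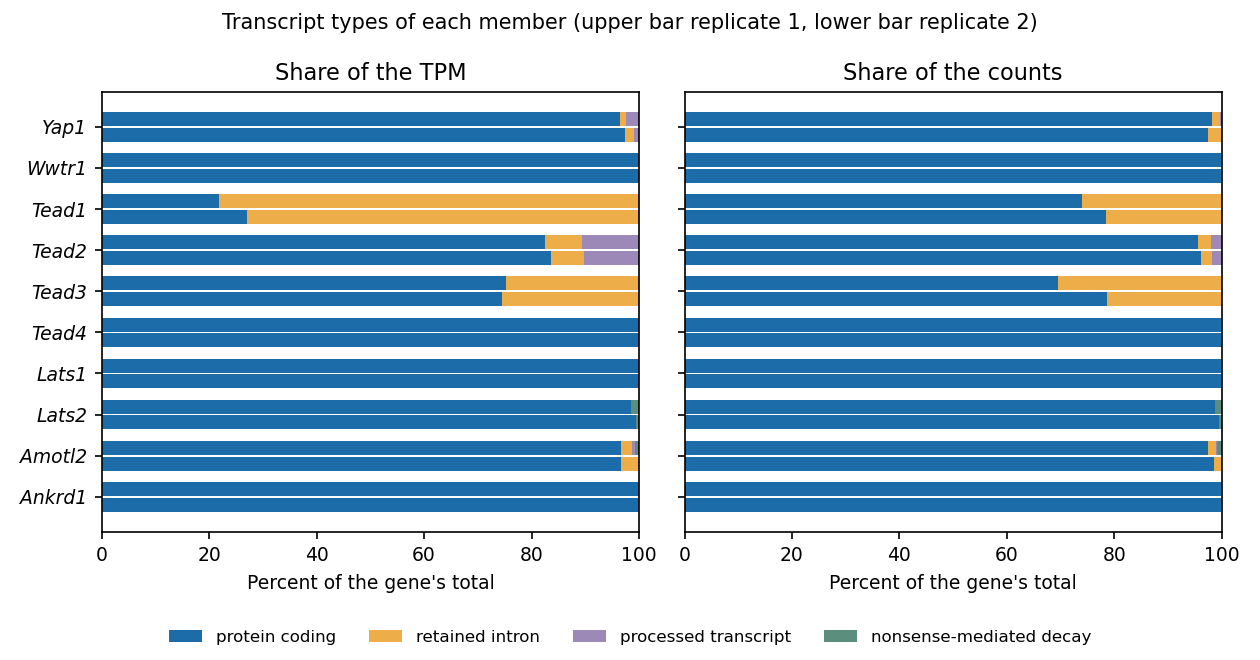
Transcripts of each gene by annotated type, as percent of the gene's TPM (left) and of its counts (right), with replicate 1 as the upper and replicate 2 as the lower bar. Protein-coding transcripts hold 21.8% and 27.0% of the TPM of Tead1 but 74.0% and 78.5% of its counts, and they hold at least 69.6% of TPM and of counts for each of the other genes.

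Of the kinases that restrain the coactivators, Lats2 was the more abundant in RNA. Lats2 (chr14:57689662-57758388, minus strand) had a TPM of 19.94 and 20.56 (20.3 ± 0.438, n = 2), from 1773 and 2574 counts. Lats1 (chr10:7681214-7716460, plus strand) had a TPM of 8.03 and 7.41 (7.72 ± 0.438, n = 2), from 1051 and 1374 counts. The ratio of Lats2 to Lats1 was 2.48 and 2.77, so Lats2 was the higher in both libraries. Lats1-202, with 1129 codons, carried 99.52% and 99.33% of Lats1, and Lats2-201, with 1042 codons, carried 88.19% and 88.41% of Lats2. The same-strand gene Gm49361 shares 2955 exon bases with Lats2. Its expected count was 0 in both libraries and its posterior mean count 3.79 and 5.08, so nearly all reads of the shared stretch had been assigned to Lats2.

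Amotl2 and Ankrd1 lay near opposite ends of the range, and Lats2, which is on the target list too, lay between them at place 5. Amotl2 encodes an angiomotin-like junction protein that binds YAP and holds it in the cytoplasm, and it is itself induced by YAP and TAZ. Amotl2 (chr9:102716672-102733418, plus strand) had a TPM of 62.46 and 63.03 (62.7 ± 0.403, n = 2), from 4245 and 6015 counts, the second highest of the 10 genes. Its TPM was divided between Amotl2-203 with 42.79% and 40.64%, Amotl2-201 with 36.24% and 42.44%, and Amotl2-211 with 14.65% and 9.94%. Amotl2-203 led in replicate 1 and Amotl2-201 in replicate 2. By counts Amotl2-201 led in both libraries, with 41.6% and 49.2%, compared with 39.2% and 37.6% for the shorter Amotl2-203.

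Ankrd1 encodes a cardiac ankyrin repeat protein that is abundant in heart and stretched muscle and is a common readout of YAP activity in cultured cells. Ankrd1 (chr19:36111961-36120099, minus strand) had a TPM of 0.350 and 0.310, from 11 and 15 counts, and was the only one of the 10 genes below detection. Counting error left its TPM between 0.175 and 0.626 in replicate 1 and between 0.174 and 0.511 in replicate 2 (exact Poisson 95% intervals). Its counts went to Ankrd1-201 in replicate 1 (100%) and mainly to Ankrd1-205 in replicate 2 (77.5%). At 11 and 15 counts this is not a measurable difference in transcript use. Cardiac muscle markers, which would come with heart tissue, were low in both libraries, with a summed TPM of 17.4 in replicate 1 and 7.21 in replicate 2. Of those 6 markers, 3 were detected and none was at 0. Nppa made most of that difference, at 8.29 and 0.5 TPM from 117 and 10 counts, whereas Tbx20 was higher in replicate 2, at 0.12 and 0.59 TPM from 17 and 81 counts.

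Between the libraries, Tead4 differed most in TPM and Amotl2 and Yap1 least. Differences were taken as log2 of (TPM + 1) in replicate 2 over replicate 1, which understates the difference of low genes. Past 2-fold there were 0 of the 9 detected genes, compared with 0.157% of 13382 detected protein-coding genes, so a count of 0 among 9 says nothing particular of them. The size of the difference was largest for Tead4 at 0.41, Tead3 at 0.32 and Tead1 at -0.29. It was smallest for Amotl2 at 0.01 and Yap1 at -0.03. The log2 ratio of depth-scaled counts was only 0.13 for Tead3, whose effective length was 2595 and 2261 bases. On that scale Lats2 was at 0.02 and Yap1 at -0.05. This sets 1 library against another, and no p-value was computed, because an exact sign-flip test on 2 values cannot go below p = 0.5.

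A finer description used the ratio of counts, scaled by the summed counts of all genes, with an exact (Clopper-Pearson) 95% interval that covers counting error only. Intervals lay off 1 for 4 of the 9 detected genes, compared with 30.0% of detected protein-coding genes. They lay above 1 for 2 genes (background 14.6%) and below 1 for 2 (background 15.4%). Among the 12007 detected genes with 79 to 7697 counts in replicate 1, the range of these 9, the share was 29.7%. That range holds most of the 13382 detected genes, so it is not a close match on counts.

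Tead4 had the highest ratio, 1.5 (1.14 to 1.98), and Wwtr1 was at 1.13 (1.04 to 1.23). Tead2 was at 0.937 (0.910 to 0.966) and Lats1 at 0.916 (0.844 to 0.993). The ratio of Tead4 was therefore outside the range of 0.740 to 1.30 that held the middle 95% of detected genes, and the other 3 were inside it. The Tead4 interval reached into that range, which was taken over genes of all counts. Tead4 had the lowest counts of the 9 detected genes, 79 and 169. Ratios of Tead1, Tead3, Yap1, Lats2 and Amotl2 had intervals that held 1, as had the undetected Ankrd1 at 0.955 (0.410 to 2.30). With scaling by TMM or by the median of ratios the Lats1 interval held 1, leaving 2 genes above and 1 below. Scaling by the ERCC spike-ins shifted every log2 count ratio by -0.13. It left 1 gene above 1 (Tead4), where 2.82% of detected genes lay, and 6 below 1, where 53.3% lay, and Wwtr1 held 1. Over protein-coding transcripts alone, Tead3 moved above 1, at 1.24 (1.09 to 1.41). Tead2 stayed below 1 and Tead4 above 1 under these 4 scalings.

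**Figure D3:**
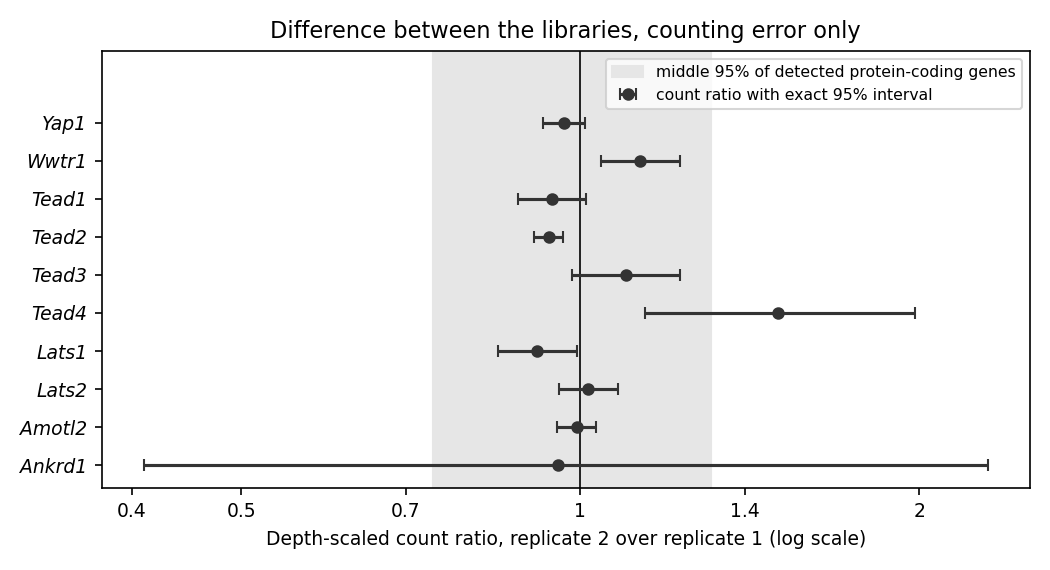
Depth-scaled count ratio of replicate 2 over replicate 1 on a log axis, with points for the ratio and bars for the exact 95% interval of counting error. The grey band, 0.740 to 1.30, holds the middle 95% of detected protein-coding genes, and only Tead4, at 1.5, has its point outside it.

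Markers of other cell types, the cardiac ones above included, also differed between the pools. Skeletal muscle markers were all detected and had a summed TPM of 227 in replicate 1 and 287 in replicate 2, with the interval above 1 for 5 of 6. Tead4 and the muscle cofactor Vgll2, at 6.80 and 9.39 TPM, were higher in the same library. Neuron markers were at 407 and 307, with the interval below 1 for 5 of 5. Lats1 and Tead2 were lower in that library too, at count ratios of 0.916 and 0.937, whereas those of the neuron markers ran from 0.724 to 0.787. Facial mesenchyme markers, which check the labelled tissue, were at 709 and 708 with all 5 detected. Their interval lay above 1 for 2 and below 1 for 3, namely Prrx1 at 0.941, Pdgfra at 0.959 and Msx1 at 0.962. Epithelium markers were at 286 and 275, with the interval above 1 for 1 and below 1 for 2. Endothelium markers were at 100.1 in both, with 0 above and 1 below. Smooth muscle markers were at 96.9 and 109, with 2 above and 0 below. No marker of these lists was at 0 in either library, and the part of tissue makeup in the differences of Tead4, Tead2 and Lats1 was not tested.

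The levels also differed little between the annotation releases used for counting. The log2 ratio of (TPM + 1) in release M4 over M21 ran from 0.03 for Tead3 to 0.08 for Tead2 among detected genes in replicate 1. Past 1.5-fold the same way in both libraries there were 0 of 9, compared with 5.09% of 13284 detected protein-coding genes matched by ID. All 9 were higher in M4 in both libraries, as were 75.5% of those genes, whose median log2 ratio was 0.06 in each library.

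The wider pathway was described by 4 lists of textbook genes, 54 genes in all with the 10 above included. Of these, 52 (96.3%) were detected, compared with 60.7% of protein-coding genes, and 0 were past 2-fold between the libraries. Their median TPM was 19.5, compared with 21.5 for detected and 4.79 for all protein-coding genes. Count intervals lay above 1 for 17 of the 52 (32.7%, background 14.6%) and below 1 for 10 (19.2%, background 15.4%). Intervals narrow as counts rise, and no share over genes of like counts was taken for this list. With spike-in scaling the background was 2.82% above 1 and 53.3% below 1, and the list was not counted again on that scale. Nearly all genes of these lists were thus found in RNA, with a median near that of detected genes. Because the lists were chosen with earlier results of these data known, their detected share is a description and no test.

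All 7 genes of the kinase cassette were detected. The upstream kinase Stk3 (MST2) had a TPM of 38.36 and 43.07, about 2.02 and 2.17 times that of Stk4 (MST1) at 18.97 and 19.89. The scaffold Sav1 had 10.12 and 9.33. The Lats adaptor Mob1a had 49.34 and 55.50, and its close relative Mob1b had 9.23 and 10.70. Lats1 was the lowest gene of the cassette and Mob1a the highest. Count intervals lay above 1 for Stk3, Mob1a and Mob1b and below 1 for Lats1.

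All 18 upstream and junction regulators were detected, with a median TPM of 24.4. The highest were Amotl2 itself, the FERM protein gene Frmd6 at 58.52 and 63.53, and Nf2, which encodes Merlin and recruits Lats to the membrane, at 55.34 and 57.31. The lowest were Wwc1, which encodes the Hippo activator KIBRA, at 6.09 and 4.45, the LIM protein gene Wtip at 6.84 and 6.02, and Ptpn14, whose phosphatase binds YAP, at 7.06 and 8.78. Wwc1 had the lowest count ratio of the list, 0.719 (0.633 to 0.818), in the library where neuron markers were lower as well, and their part in it was not tested. The other angiomotin genes, Amot at 53.30 and 46.25 and Amotl1 at 27.58 and 26.36, were both lower than Amotl2 and were picked as relatives of it after their values were seen.

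Of the 10 nuclear effectors and cofactors, 9 were detected. Vestigial-like proteins bind Tead factors at the surface that YAP also uses, and their genes covered a wide range here. Vgll4, which competes with YAP for Tead, had a TPM of 106.23 and 106.35, second only to Tead2 in the list. Vgll3 had 15.95 and 16.29, and Vgll2 6.80 and 9.39. Vgll1 had 0.40 and 0.43 and was not detected. Vgll4 was thus above Yap1 in both libraries. Protein-coding transcripts held 65.7% and 69.2% of the TPM of Vgll4.

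Of the 23 target genes, 22 were detected, all but Ankrd1, with a median TPM of 19.5. The highest were Igfbp3, a secreted binding protein of insulin-like growth factors, at 89.82 and 88.10, Asap1 at 89.31 and 82.00, and Rbms3 at 67.37 and 73.59. Protein-coding transcripts held only 56.2% and 56.0% of the TPM of Asap1, compared with 97.8% and 98.6% for Rbms3. The place of Asap1 therefore depended on which transcripts were counted. The lowest after Ankrd1 were Dock5 at 1.52 and 1.51 and Nt5e at 2.41 and 2.5. Ccdc80 had the largest positive log2 difference, 0.34, at 30.36 and 38.80 TPM, and Crim1 the largest negative one, -0.19, at 5.4 and 4.62. By count ratio Gadd45a was above Ccdc80, at 1.21 (1.06 to 1.37) and 1.19 (1.12 to 1.27). Over protein-coding transcripts Ccdc80 had a TPM of 25.34 and 29.98. The direction of Crim1 turned on other scales, with a count ratio of 1.07 (0.947 to 1.21) and a TPM of 3.82 and 4.28 over protein-coding transcripts. Ccn1 (Cyr61) at 44.58 and 49.80 and Ccn2 (Ctgf) at 8.28 and 7.49, the matricellular genes most used as YAP readouts, were added after their values were seen. Ccn1 exceeded Ccn2 5.38-fold and 6.65-fold. Levels of target genes ran from 0.330 for Ankrd1 to 88.96 for Igfbp3 in mean TPM, and these genes have other regulators, so their level is not a measure of YAP or TAZ activity.

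**Figure D4:**
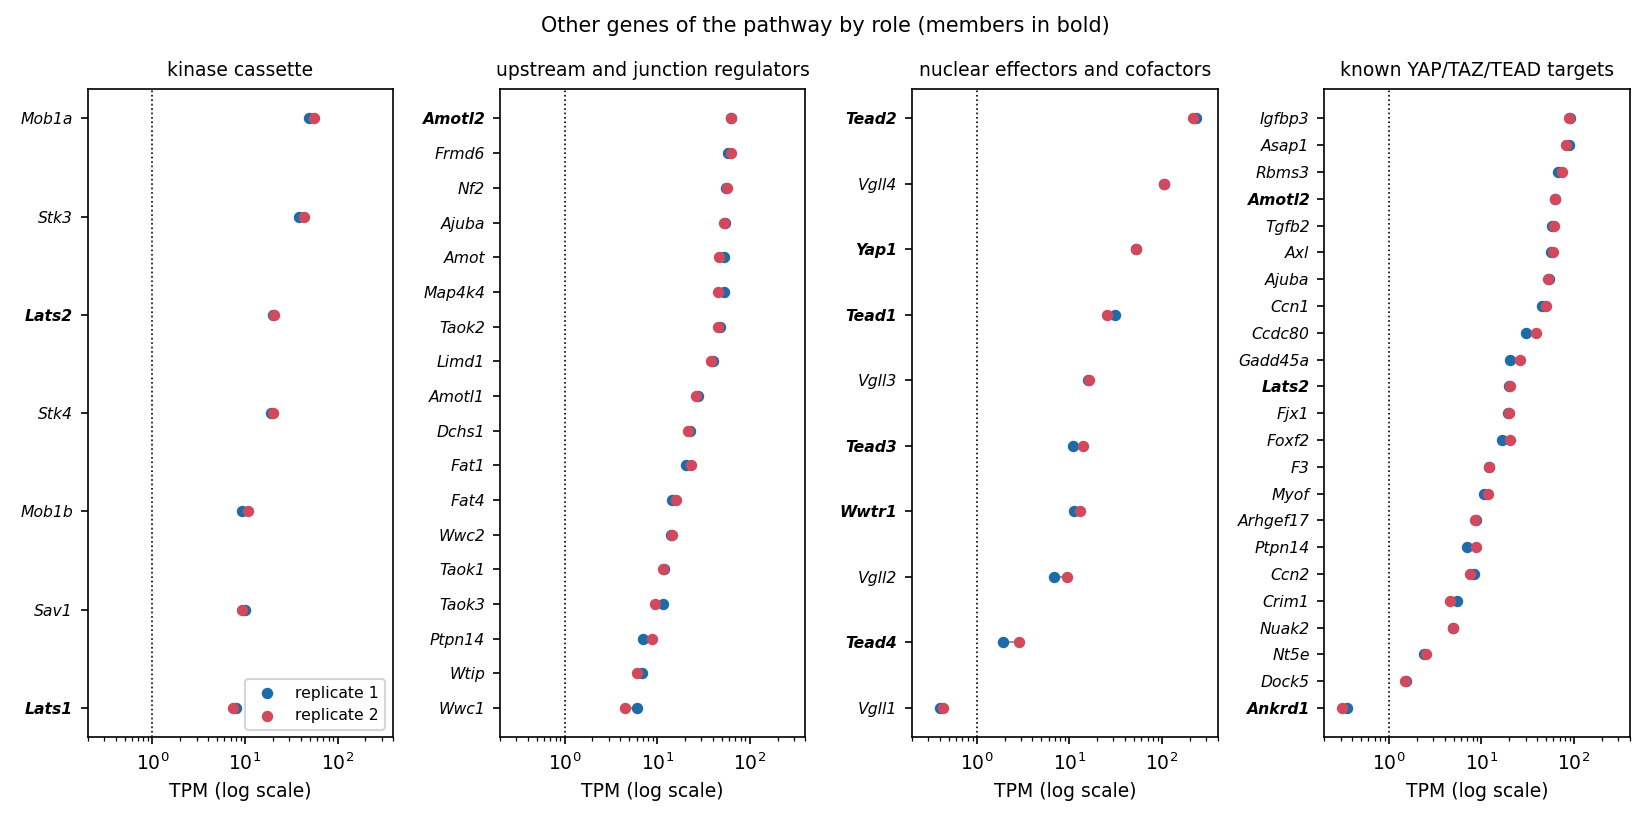
Level in TPM on a log axis of the pathway genes of 4 lists, in replicate 1 (blue) and replicate 2 (red), ordered by mean within each list, with the 10 genes of this report in bold and the dotted line at a TPM of 1. Tead2 and Vgll4 lead the nuclear list at 224 and 106 mean TPM, and Vgll1 and Ankrd1 lie left of the line.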

How the data were processed

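PolyA RNA of 2 pooled samples was primed with oligo-dT, with ERCC spike-ins added, from 10 ng per library, per the labels. The deposited tables give, per the file headers, expected counts (estimated reads, which need not be whole), TPM, FPKM and, for transcripts, the percent of the gene's abundance. Per the deposited descriptions of the files they were made on mm10 with GENCODE M21 and again with M4. For the aligner, the quantifier and the use of strand, nothing is given in the sources used here. Summed expected counts were 28705073 in replicate 1 and 41092194 in replicate 2, of which 2.85% and 3.10% named no gene, nearly all of them spike-ins, and stayed out of count scaling. Depth limits the lowest genes, Ankrd1 and Tead4, most.

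Levels are the deposited TPM, mean ± SD over 2 libraries, so the SD is the spread between these pools. Expected counts were rounded for the exact intervals, which show counting error alone: reads were amplified and carry no molecular identifiers, so they may repeat a molecule. Names, transcript types and coordinates came from GENCODE M21, coding bases from its transcripts, and promoter windows from RefSeq (GRCm38.p6). Protein sequences were not used here. Identity was counted over global alignments of coding bases (Biopython 1.88). TMM factors came from edgeR 4.0.16. Other steps used Python 3.11.15, numpy 2.4.6, pandas 2.3.3 and scipy 1.17.1. The interval was tested on simulated data.

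Alternatives were other pseudocounts, scalings, detection minimums, the posterior mean estimate, FPKM, release M4, each library left out and, added after seeing the data, protein-coding transcripts alone. Named genes are the 10 genes and, from each list, the 3 highest, the 3 lowest, the gene with the largest log2 ratio in each direction, and all genes of lists of up to 10. Transcripts at 10 percent or more in either library were described. The genes and lists were chosen with earlier results of these data known.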

Additional observations from a re-analysis of the deposited data

How the results depend on the processing

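No paired analysis was possible because both libraries belong to 1 group. The count of detected genes was 8 to 9 of 10, and of detected pathway genes 46 to 52 of 54, under every alternative tried, the lowest values being those at a TPM of at least 5. Leaving out either library gave 9 and 52. The count past 2-fold between libraries, and that past 1.5-fold between releases, was 0 under each of their alternatives. The count of genes with an interval off 1 was 4, and 7 with spike-in scaling, 3 to 5 otherwise. Tead2 took a mean of 83.8% of the summed Tead TPM, 84.0% in release M4, 83.5% by posterior means and 90.9% over protein-coding transcripts. Tead1 took 10.6%, or 3.36% over protein-coding transcripts, and 9.89% to 11.4% with either library left out. The mean ratio of Yap1 to Wwtr1 was 4.35, between 4.21 and 4.44 under the other estimates, and 4.02 or 4.67 with 1 library left out. For single genes, 17 of 60 levels and 8 of 40 transcript shares moved by at least the SD of the 2 libraries. Leaving out 1 library cannot move a level or share that far, so those checks could only come out unmoved. Of the log2 ratios, 8 of 90 moved by more than their counting error, 7 of those with spike-in scaling. At 11 and 15 counts, transcript use of Ankrd1 could not be measured.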
